A study of Mus musculus with 72 samples.

Results

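The calcium signalling genes described here were Camk2a, Camk2b, Camk4, Nrgn, Itpka, Ptk2b, Rasgrp1, Ppp3ca and Thy1. They were chosen by their rise with age in these same arrays, so that rise is given as a description, without a test. Every probe set annotated with only the symbol of a member was taken, which gave 24 probe sets for the 9 genes, out of 34958 probe sets for 18194 genes. Camk2a had 6 probe sets, Camk4 had 5, Rasgrp1 had 4, Ppp3ca had 3, Ptk2b had 2, and the remaining 4 genes had 1 each. The RNA came from whole brains of male mice of the inbred strains DBA/2J (D2), 129S2 (129) and C57BL/6J (B6), with no treatment. Each strain was sampled as E14.5 embryos, P1 and P7 pups and P90 adults, with 3 arrays in each of the 12 groups, and the number of arrays limits the precision. The adults labelled P90 are recorded only with a range of ages in weeks, the same range for every strain. P90 is therefore not an exact age, and adult groups may differ in age within that range. Adults had been purchased, whereas the younger animals were first-generation offspring bred from purchased stock. The labels do not say whether an array held 1 animal, so p-values measure the spread between arrays, which may be partly technical.

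Calcium entering a neuron through glutamate receptors and voltage-gated channels binds calmodulin, and calcium-loaded calmodulin switches on kinases and a phosphatase. Camk2a and Camk2b encode the main subunits of calcium/calmodulin-dependent kinase II, which is enriched at excitatory synapses, and Camk4 encodes a nuclear kinase that phosphorylates the transcription factor CREB. Nrgn (neurogranin) holds calmodulin at low calcium, and Ppp3ca encodes the alpha catalytic subunit of the phosphatase calcineurin. Itpka phosphorylates inositol trisphosphate, the messenger that releases stored calcium, and also bundles actin in spines. Ptk2b (Pyk2) is a tyrosine kinase that responds to calcium, Rasgrp1 is an exchange factor for Ras with binding sites for calcium and diacylglycerol, and Thy1 is a surface glycoprotein of mature neurons and of T cells.

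Promoters are shown because the members share a rise with age. RefSeq promoters on GRCm38.p6 are shown for 4 of the 9 members. The other members had no match or lay on 1 chromosome that was left out. The windows shown run from 250 bases before to 50 bases after the start of the gene. They are written 5′ to 3′ on the gene's strand, with each GC box (GGGCGG on either strand) in capitals.
Camk2b (chr11:6065699-6065998, minus strand): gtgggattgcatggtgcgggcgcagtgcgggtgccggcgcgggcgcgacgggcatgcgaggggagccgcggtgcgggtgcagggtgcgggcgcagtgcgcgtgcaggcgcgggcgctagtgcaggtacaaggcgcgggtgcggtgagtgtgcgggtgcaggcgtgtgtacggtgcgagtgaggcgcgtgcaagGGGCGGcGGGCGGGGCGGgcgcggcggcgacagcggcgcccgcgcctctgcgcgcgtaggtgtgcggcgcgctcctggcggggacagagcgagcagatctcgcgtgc
Nrgn (chr9:37552696-37552995, minus strand): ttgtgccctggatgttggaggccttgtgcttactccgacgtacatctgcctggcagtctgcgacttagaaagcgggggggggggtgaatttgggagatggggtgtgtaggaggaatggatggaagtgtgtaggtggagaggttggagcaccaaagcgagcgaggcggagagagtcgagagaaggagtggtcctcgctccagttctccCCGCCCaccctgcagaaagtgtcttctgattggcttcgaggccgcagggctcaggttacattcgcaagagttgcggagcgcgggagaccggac
Itpka (chr2:119742087-119742386, plus strand): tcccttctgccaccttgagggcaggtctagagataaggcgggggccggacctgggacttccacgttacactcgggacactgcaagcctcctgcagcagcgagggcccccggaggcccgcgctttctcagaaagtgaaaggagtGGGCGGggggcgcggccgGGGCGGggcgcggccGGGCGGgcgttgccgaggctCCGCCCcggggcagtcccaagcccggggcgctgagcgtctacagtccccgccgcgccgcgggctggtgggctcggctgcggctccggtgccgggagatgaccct
Rasgrp1 (chr2:117342828-117343127, minus strand): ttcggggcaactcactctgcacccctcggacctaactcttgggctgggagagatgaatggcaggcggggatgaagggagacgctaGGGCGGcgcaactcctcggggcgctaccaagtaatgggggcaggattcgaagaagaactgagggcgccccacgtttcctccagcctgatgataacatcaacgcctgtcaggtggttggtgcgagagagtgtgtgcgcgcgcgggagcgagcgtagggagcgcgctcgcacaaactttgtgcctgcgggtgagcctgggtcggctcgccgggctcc
All 4 windows held a GC box, with 4 matches in Itpka, 3 in Camk2b, of which 2 overlap by a base, and 1 each in Nrgn and Rasgrp1. A GC box was present in 35.7% of all 32851 promoters of the same length. Their GC content was 77.3% in Camk2b, 73.7% in Itpka, 63.7% in Rasgrp1 and 59.3% in Nrgn, against a median of 52.7% over all promoters. Neither strand of the 4 windows contained TGACG, the core of the site bound by CREB (20.8% of all promoters), TGACGTCA (1.79%), TATAAA (13.6%), CAGCTG (16.3%) or a MEF2 site (0.557%). The TGACGTCA letters include TGACG. These matches describe the letters only.

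The deposited brain arrays had medians between 6.41 and 7.3 log2 units. Arrays of the same stage shared 2.54 to 4.12% of their values to the last digit and arrays of different stages at most 0.00443%, so the stages had been normalized apart. Each of the 36 arrays matched the profile of its labelled strain best, over 400 probe sets that separate the strains. These were chosen with the labels of the same 36 arrays, so the match is not an independent check. Replicate 2 of the adult 129 arrays stood apart, with a correlation of 0.577 with its own strain against 0.877 or more for the other arrays, and the differences called for adult 129 arrays, for 129 over the 4 stages and in the interaction are given with and without it. The label of the group could be checked only in part. Whole brain was used, so a restriction to forebrain was not measured. General neuronal markers were high at every stage, such as the synaptic gene Snap25 (13.94 at P90 and 10.91 at E14.5, on values quantile normalized over the brain arrays). Syt1, Rbfox3 and Nefl were also higher at P90 than at E14.5, while Stmn2 (-0.44) and Tubb3 (-1.92) were lower. Of 5 forebrain excitatory markers, only Slc17a7, the vesicular glutamate transporter of these neurons, rose clearly, by 4.46 ± 0.49 log2 from E14.5 to P90. The transcription factor Neurod6 was 1.48 ± 0.37 lower at P90. Neurod2 (-1) and Tbr1 (-0.58) were lower too, Emx1 changed by 0.16, and the median of the 5 was -0.58. T cell markers, which bear on Thy1, were uneven, with stage means of 4.16 to 4.24 for Cd3g, 4.06 to 4.74 for Cd2 and 5.70 to 6.18 for Cd3d, but 7.57 to 8.19 for Cd3e, 7.29 to 7.83 for Cd4 and 6.65 to 7.57 for Cd8a, and their part in the Thy1 signal was not tested. Each of these 6 changed by less than 1 log2 between E14.5 and P90. In whole tissue, more cells of a type and more RNA per cell cannot be told apart.

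The 9 genes climbed by different routes to a high adult signal. Stages were set side by side after quantile normalization over the 36 brain arrays (the quantile scale), with the brightest probe set of each gene and with no test. Between E14.5 and P90 all 9 genes gained at least 2-fold in every one of the 3 strains, against 12.3% of 14216 genes. Their median difference was 5.23 ± 0.21 log2 (SD over 3 strains), with a range of 2.64 to 7.31, while the median over all genes was -0.21. The first step, E14.5 to P1, had a median of 2.21 and reached 2-fold in each strain for 8 of 9 members (4.8% of all genes). From P1 to P7 the median was 1.498 and 7 of 9 members reached 2-fold (1.31% of all genes). From P7 to P90 it was 0.92 and 3 of 9 reached it, namely Itpka, Ptk2b and Rasgrp1 (3.9% of all genes). All 24 probe sets passed the filter on low values, a highest group mean above 6.66, but only 14 of them had a group mean above it at E14.5, so sizes from that stage are not exact.

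**Figure D1:**
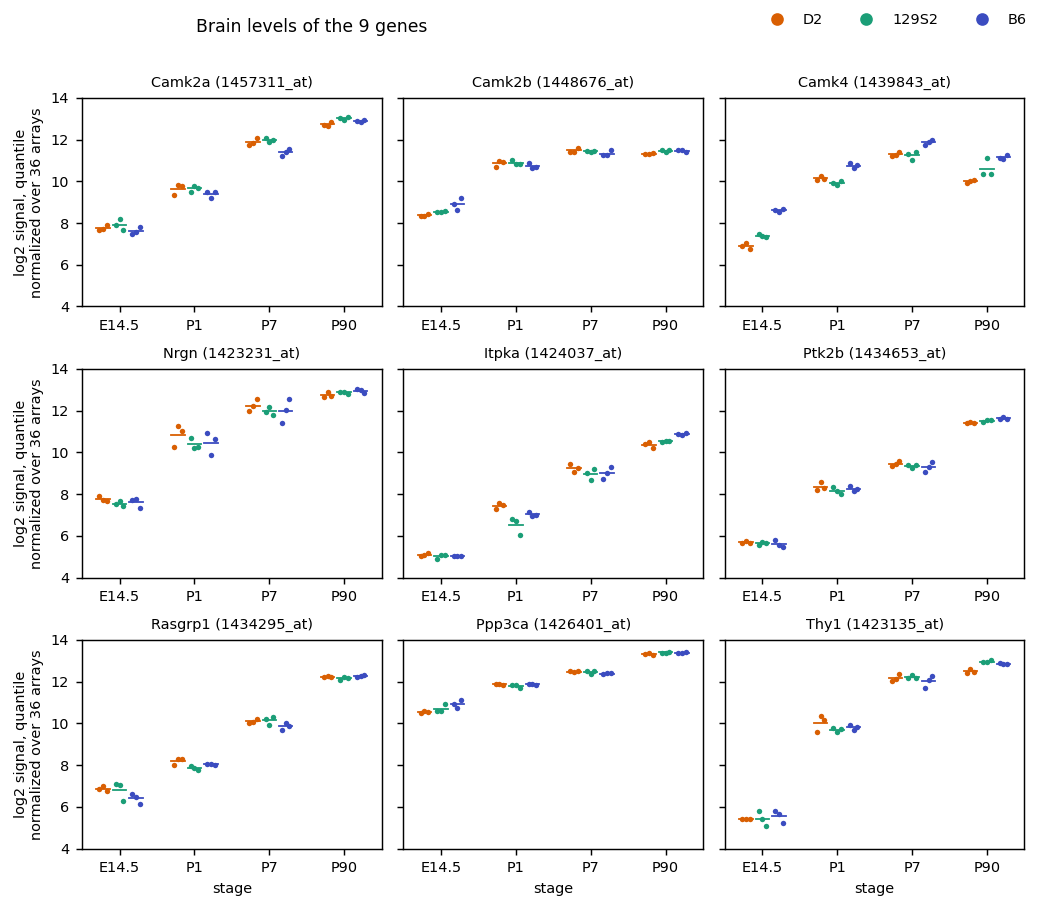
Log2 signal on the quantile scale (vertical axis) by stage (horizontal axis) for 1 probe set of each gene; points are arrays, bars are group means of 3 arrays, in D2, 129S2 and B6. In each strain all 9 genes are higher in adults than in embryos, and Camk4 is highest at P7.

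Among the kinases, Camk2a (1457311_at) had a lowest, median and highest signal over the 9 arrays of a stage of 7.46, 7.70 and 8.19 at E14.5 and of 9.21, 9.51 and 9.83 at P1. At P7 these were 11.22, 11.83 and 12.08, and at P90 12.64, 12.88 and 13.11. No array overlapped with another stage on the quantile scale. Its largest step was P1 to P7, 2.18 ± 0.17 log2. Camk2b (1448676_at) had 8.33, 8.55 and 9.22 in E14.5 arrays, 10.62, 10.83 and 11.01 in P1 arrays, 11.24, 11.43 and 11.61 in P7 arrays, and 11.29, 11.42 and 11.51 in P90 arrays. The first step, 2.21 ± 0.36, made 78.8% of its rise, and the P7 and P90 arrays overlapped throughout, with a difference of -0.004 ± 0.16. The beta subunit was thus near its adult signal by P7, when the alpha subunit was still 1.13 ± 0.33 below it. On the deposited values, whose array medians were 6.41 to 6.44 at P90 and 7.21 to 7.26 at P7, the last step was -0.69 for Camk2b and 0.51 for Camk2a. Camk4 (1439843_at) had 6.76, 7.37 and 8.68 at E14.5 and 9.80, 10.09 and 10.86 at P1. It was highest at P7, with 11.04, 11.39 and 11.96, and had 9.93, 10.37 and 11.28 at P90. The P90 value lay 0.88 ± 0.35 under that of P7 in the mean of the strains, with differences of -1.28 in D2, -0.64 in 129 and -0.72 in B6, and of -1.57 on the deposited values.

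The calmodulin-binding protein gene Nrgn (1423231_at) had 7.34, 7.68 and 7.89 in E14.5 arrays, 9.86, 10.63 and 11.26 in P1 arrays, 11.42, 12.01 and 12.55 in P7 arrays, and 12.65, 12.88 and 13.05 in P90 arrays. The steps shrank in order, 2.94 ± 0.14, 1.498 ± 0.10 and 0.79 ± 0.26, and stages did not overlap on the quantile scale. On the deposited values the last step of Nrgn was 0.18, with D2 means of 12.39 at P7 and 12.32 at P90. Ppp3ca (1426401_at), the calcineurin subunit, had 10.49, 10.61 and 11.14 at E14.5 and 11.70, 11.86 and 11.91 at P1. At P7 it had 12.36, 12.45 and 12.53, and at P90 13.28, 13.38 and 13.45. Its rise of 2.64 ± 0.17 was the smallest among the 9 genes, and its steps were 1.13, 0.60 and 0.92, of which the last was the largest in B6. Already at E14.5 it stood at percentiles of 91.7 to 95.2 within its arrays.

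Itpka (1424037_at), the inositol trisphosphate kinase gene, had 4.91, 5.05 and 5.16 in E14.5 arrays, 6.06, 6.99 and 7.58 in P1 arrays, 8.70, 9.05 and 9.46 in P7 arrays, and 10.20, 10.54 and 10.92 in P90 arrays. Its first and second steps were nearly equal, 1.95 ± 0.42 and 2.08 ± 0.33, and the first was the larger in D2 and B6. Ptk2b (1434653_at) climbed early and late, by 2.62 ± 0.08, 1.11 ± 0.06 and 2.15 ± 0.18. Its arrays ran from 5.45 to 5.81 at E14.5, 7.99 to 8.59 at P1, 9.08 to 9.59 at P7 and 11.39 to 11.68 at P90. Rasgrp1 (1434295_at) was the late member, with steps of 1.35 ± 0.29, 2.01 ± 0.25 and 2.18 ± 0.20, although in 129 the second (2.29) exceeded the last (2.02). Its arrays ran from 6.13 to 7.07 at E14.5, 7.76 to 8.31 at P1, 9.70 to 10.31 at P7 and 12.10 to 12.31 at P90. Thy1 (1423135_at) had 5.06, 5.41 and 5.82 at E14.5 and 9.57, 9.80 and 10.34 at P1. It then had 11.71, 12.16 and 12.39 at P7 and 12.44, 12.86 and 13.02 at P90. Its first step, 4.39 ± 0.21, was the largest step of any member and made 60.1% of its rise of 7.31 ± 0.21. The last step of Thy1 was 0.64 ± 0.28 on the quantile scale and 0.04 on the deposited values.

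**Figure D2:**
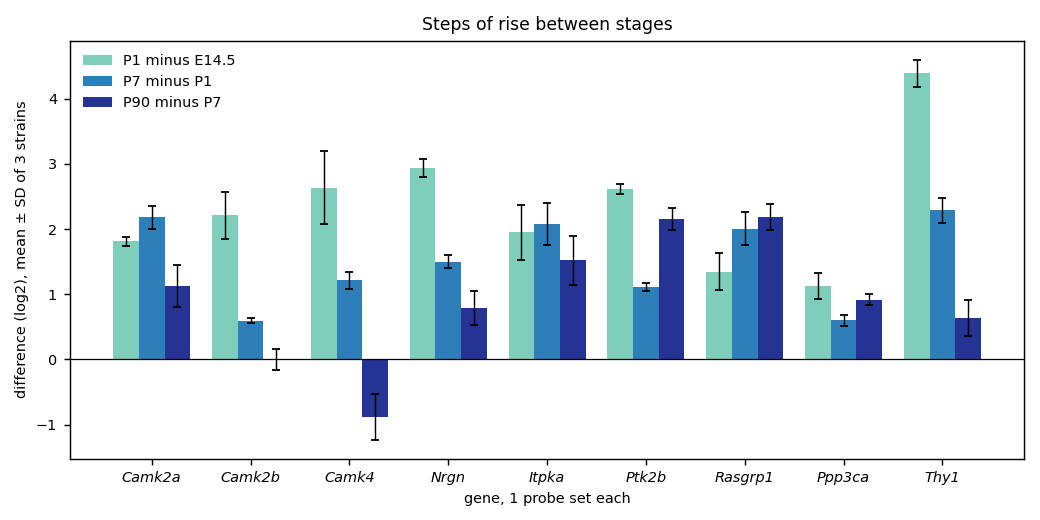
Difference between neighbouring stages (vertical axis, log2, quantile scale) for each gene (horizontal axis); bars are means and error bars SDs of 3 strains. Thy1 has the tallest first step (4.39), Rasgrp1 is the only gene with its tallest bar at P90 minus P7 (2.18), and Camk4 has a negative last step (-0.88).

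Other probe sets of the same gene did not always share the timing. All 4 Rasgrp1 probe sets had their largest step between P7 and P90, at 2.18, 2.62, 3.16 and 4.12 log2. For Ppp3ca all 3 had it between E14.5 and P1, at 1.04 to 1.29. The second Ptk2b probe set (1442927_at) made 91.5% of its rise after P7, 2.94 log2, and ran only from 6.39 to 7.12 before that. Camk2a split most. Its probe set 1452453_a_at was dim at E14.5 and P1 (4.04 to 4.52), had 5.43 to 6.51 at P7 and reached 9.85 to 10.42 at P90, a last step of 4.17 log2. For 1442707_at the largest step was also the last (2.13), 1437125_at and 1443876_at had it between P1 and P7, and 1441734_at was 0.65 log2 lower at P90 than at E14.5. Of the Camk4 probe sets, 1426167_a_at, 1441974_at and 1421941_at were 2.34 to 2.77 higher at P90 than at E14.5 on the quantile scale, with a higher median at P90 than at P7, whereas 1452572_at was 1.25 lower. The number of genes with a largest last step, 1 on the quantile scale, was 0 on the deposited values and 2 with each array centred on its median.

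Differences between strains were tested within each stage on the deposited values with limma, and a call required both 1.5-fold or more and an adjusted p (Benjamini-Hochberg, 30894 probe sets) under 0.05. Most members differed little, and 7 probe sets of 3 genes, Camk4, Camk2a and Itpka, carried all 20 calls within stages. At E14.5, 1 of 24 member probe sets was called in D2 minus B6 (5.19% of all probe sets), 1 in 129 minus B6 (3.85%) and 0 in 129 minus D2 (2.63%), where limma gave 3 at an unadjusted p under 0.05. At P1 the counts were 2 (2.11%), 1 (2.13%) and 1 (2.25%) in the same order of pairs. At P7 they were 4 (2.16%), 5 (2.07%) and 0 (1.94%), the last with 4 at an unadjusted p under 0.05. At P90 they were 3 (2.83%), 1 (2.28%) and 1 (2.13%). For the mean difference over the 4 stages they were 3 (2.37%), 2 (2.3%) and 0 (2.18%), the last with 9 at an unadjusted p under 0.05. With 24 probe sets, 1 call is 4.17%, so counts of 0 and 1 lie near these shares. Probe sets of a gene are not independent, and Camk4 alone supplied 17 of the 20.

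**Figure D3:**
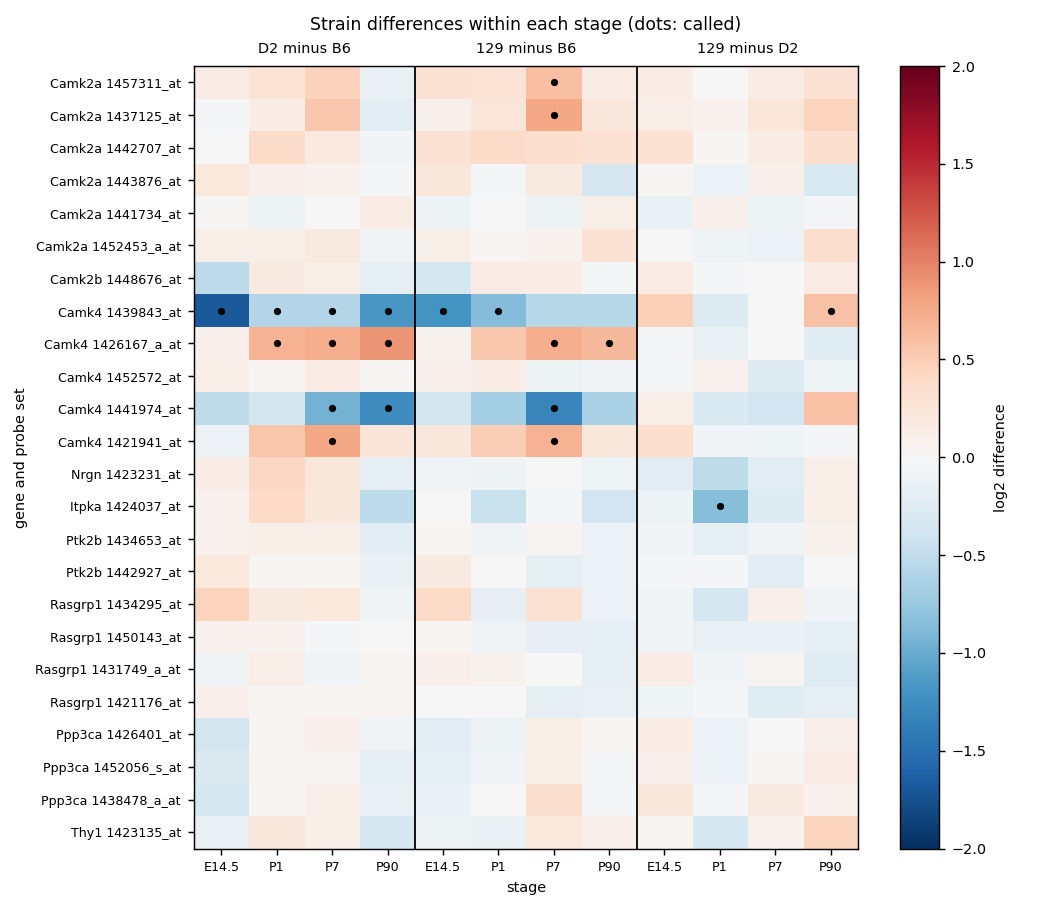
Log2 difference (colour) between strains for each of the 24 member probe sets (rows) at each stage (columns), in 3 strain pairs; dots mark calls by limma. Camk4 carries most dots, in both colours, and rows of Camk2b, Nrgn, Ptk2b, Rasgrp1, Ppp3ca and Thy1 have none.

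Camk4 differed between strains in opposite directions depending on the probe set. On 1439843_at at E14.5, the D2 arrays read 7.17, 7.27 and 7.05 and the 129 arrays 7.73, 7.62 and 7.57, against 8.82, 8.78 and 8.92 in B6. Both strains lay wholly below B6, D2 by 1.67 ± 0.14 log2 (SE, limma adjusted p = 3.74e-10) and 129 by 1.20 ± 0.14 (adjusted p = 3.49e-07). At P1 it read 10.16, 10.39 and 10.22 in D2 and 10.01, 9.91 and 10.04 in 129, against 10.98, 10.70 and 10.86 in B6. The differences were smaller there, -0.59 ± 0.14 for D2 (adjusted p = 0.00711) and -0.86 ± 0.14 for 129 (adjusted p = 8.26e-05). At P7 the arrays were 11.41, 11.43 and 11.59 in D2 and 11.53, 11.29 and 11.65 in 129, against 11.92, 12.12 and 12.15 in B6. D2 was lower by 0.59 and called, with a fold of 1.503 at a minimum of 1.5, while the 129 difference of -0.57 missed that minimum. Leaving out any 1 of 4 arrays (D2 or B6 replicates 1 and 3) ended the D2 call at P1, with -0.52 to -0.58. At P7 any 1 of 4 (D2 replicates 1 and 2, B6 replicates 2 and 3) ended it, with -0.54 to -0.57.

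The adult arrays on 1439843_at read 9.43, 9.54 and 9.58 in D2 and 9.83, 10.64 and 9.87 in 129, against 10.64, 10.59 and 10.81 in B6. D2 lay 1.16 ± 0.14 below B6 (adjusted p = 4.5e-07) with no overlap. The 129 value of 10.64 belongs to replicate 2, the array that stood apart, and lies in the B6 range. On 1441974_at that array read 7.96, against 7.02 and 7.16 in the other adult 129 arrays and 7.93, 7.90 and 8.24 in B6. 129 minus D2 on 1439843_at was 0.59 ± 0.14 (adjusted p = 0.00619) with it and 0.33 ± 0.10 (adjusted p = 0.0568) without it.

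The dimmer probe set 1441974_at had the same direction. At P7 it read 6.64, 6.88 and 7.23 in D2 and 6.30, 6.40 and 6.92 in 129, against 7.74, 8.04 and 7.80 in B6. D2 was lower by 0.94 ± 0.20 (adjusted p = 0.00315) and 129 by 1.32 ± 0.20 (adjusted p = 4.86e-05), and neither overlapped with B6. At P90 D2 read 6.59, 6.90 and 6.87, 1.24 ± 0.20 below B6 (adjusted p = 7.44e-05).

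Another pair of Camk4 probe sets ran the opposite way. On 1426167_a_at the P1 arrays read 7.49, 7.45 and 7.48 in D2 and 7.35, 7.36 and 7.24 in 129, against 6.75, 6.98 and 6.64 in B6. At P90 they were 8.49, 8.48 and 8.59 in D2 and 8.28, 8.10 and 8.45 in 129, against 7.61, 7.60 and 7.69 in B6. B6 was the lowest strain with no overlap at P1, P7 and P90, and all strains lay between 6.38 and 6.67 at E14.5. D2 was higher than B6 by 0.69 at P1, 0.73 at P7 and 0.88 at P90 (SE 0.10, adjusted p of 9.85e-06 or less), and 129 by 0.73 at P7 and 0.64 at P90 (adjusted p of 3.11e-05 or less). Without 129 replicate 2, the array that stood apart, the P90 value for 129 was 0.73 (adjusted p = 1.14e-05). Without 129 replicate 3 it was 0.56 and missed the fold minimum. On 1421941_at the P7 arrays read 6.67, 6.75 and 6.89 in D2 and 6.58, 6.58 and 6.89 in 129, against 6.21, 5.86 and 5.89 in B6. Both were higher than B6, by 0.78 and 0.69 (SE 0.10, adjusted p of 1.03e-05 or less). The fifth, 1452572_at, gave no call in any comparison.

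**Figure D4:**
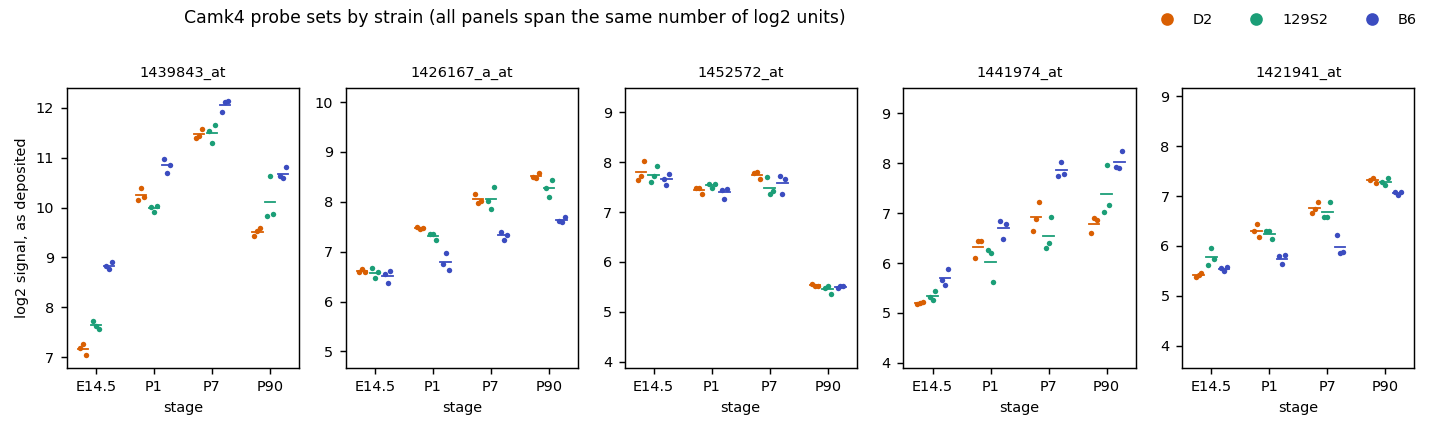
Deposited log2 signal (vertical axis) of the 5 Camk4 probe sets by stage (horizontal axis); points are arrays and bars group means of 3, in D2, 129S2 and B6. By group means, B6 lies above the others on 1439843_at and 1441974_at, below them on 1426167_a_at and 1421941_at after E14.5, and on 1452572_at lowest at E14.5 and P1 and between them at P7 and P90.

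Over the 4 stages, the D2 difference from B6 was -1.003 ± 0.07 on 1439843_at, -0.77 ± 0.10 on 1441974_at and 0.60 ± 0.05 on 1426167_a_at. The 129 difference from B6 was -0.80 ± 0.07 on 1439843_at and -0.75 ± 0.10 on 1441974_at, and these 5 were called. Without 129 replicate 2 at P90 the 129 values were -0.865 (adjusted p = 4.78e-14) and -0.825 (adjusted p = 3.26e-08). Camk4 was called both ways in D2 minus B6 at P1, P7, P90 and over the stages, and in 129 minus B6 at P7. Of 6687 genes with 2 or more tested probe sets, 52 were called both ways in at least 1 of the 12 comparisons within a stage. With the probe sets of Camk4 averaged, no difference from B6 was called, and the values ran from -0.41 (D2 at E14.5) to 0.07 (D2 at P1). The D2 value at E14.5 passed limma's adjusted p (3.96e-04) but not the fold minimum. So did the values over the 4 stages, -0.14 for D2 (adjusted p = 0.0112) and -0.125 for 129 (adjusted p = 0.0285). These probe sets therefore give no single direction for Camk4 RNA, and the cause of their split was not tested.

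Camk2a also had calls. At P7 on 1437125_at, 129 arrays read 10.90, 10.70 and 11.03, against 10.17, 10.06 and 10.07 in B6. On 1457311_at they read 12.27, 12.13 and 12.18, against 11.41, 11.62 and 11.73 in B6. The 129 brains were higher on both without overlap, by 0.78 ± 0.10 (adjusted p = 7.34e-06) and 0.61 ± 0.14 (adjusted p = 0.00708). The second of these was no longer called without 129 replicate 1 (0.57) or B6 replicate 1 (0.52). The other 4 Camk2a probe sets were not called, and the mean of all 6 gave 0.31 (adjusted p = 0.0676). Below the fold minimum at P90, 129 was 0.44 above D2 on 1437125_at (limma adjusted p = 0.00856). It was 0.34 below B6 on 1443876_at (adjusted p = 0.0331). At P7, D2 was also above B6 on 1437125_at, by 0.54 (adjusted p = 0.00104), under that minimum. In the same P7 arrays, the mean level of 5 oligodendrocyte markers, which mark the maturing white matter, ran from 8.09 to 8.47 in 129 and 7.94 to 8.25 in D2, against 7.40 to 7.77 in B6. Cldn11 and Mog, a myelin junction protein and a myelin surface protein, were called in 129 minus B6 (0.85 and 0.60). Mog had a stage mean of 3.82 at P7 on the quantile scale, below the filter on low values, and of 9.07 at P90. Its P7 call therefore compares dim signals, and the size of that difference is not exact. The mean level of 6 microglial markers at P7 ran from 8.78 to 8.86 in 129 and 8.56 to 8.78 in D2, against 8.44 to 8.69 in B6. Of these 6, only P2ry12 was called in 129 minus B6 (0.89, limma adjusted p = 4.82e-05). The part of either cell type in the Camk2a difference was not tested.

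Itpka gave a single call. At P1 it read 6.93, 6.86 and 6.30 in 129 and 7.38, 7.66 and 7.60 in D2, while B6 lay between them at 7.23, 7.08 and 7.13. The 129 value was 0.85 ± 0.14 lower than that of D2 (adjusted p = 2.2e-04), with no overlap, and 0.65 to 0.97 lower over all fits with 1 array left out. At P90 the order differed, with 9.95, 10.08 and 10.05 in 129, 9.91, 10.03 and 9.72 in D2 and 10.40, 10.38 and 10.45 in B6. D2 minus B6 was then -0.52 ± 0.14 (adjusted p = 0.0236), under the fold minimum.

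The other members gave no call, with differences between -0.52 and 0.18 log2 for Camk2b, -0.51 and 0.42 for Nrgn, -0.23 and 0.21 for Ptk2b, -0.35 and 0.45 for Rasgrp1, -0.37 and 0.31 for Ppp3ca and -0.35 and 0.45 for Thy1. Some passed the adjusted p below the fold minimum. At E14.5 Camk2b read 8.57, 8.63 and 8.66 in D2 and 8.76, 8.81 and 8.77 in 129, against 9.11, 8.86 and 9.44 in B6. D2 was 0.52 ± 0.11 below B6 (adjusted p = 9.29e-04), and all 3 Ppp3ca probe sets were lower in D2 too, by 0.29 to 0.37 (adjusted p of 0.0173 or less). Rasgrp1 (1434295_at) was 0.45 ± 0.14 higher in D2 (adjusted p = 0.0255). At that stage the mean level of 6 general neuronal markers was 11.63 to 11.76 in D2 and 11.56 to 11.77 in 129, against 11.89 to 12.34 in B6. The forebrain excitatory markers ran the other way in their group means, 9.56 in D2 and 9.80 in 129 against 9.35 in B6, with arrays that overlapped. The part of either marker list in the E14.5 differences was not tested.

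The strain difference depended on the stage for 6 of 24 probe sets (limma F test of the interaction, 4.36% of all probe sets called). They were 1437125_at of Camk2a, 1448676_at of Camk2b, 3 probe sets of Camk4 and that of Itpka. Without 129 replicate 2 at P90 the count was 7. With the replicate number as a block within each stage it was 5, since Camk2b then had adjusted p = 0.0539. For Camk4 1439843_at, D2 minus B6 was 1.09 log2 closer to 0 at P7 than at E14.5 (adjusted p = 9.57e-04). The other Camk4 probe sets called here, 1426167_a_at and 1421941_at, lay below the filter of 6.66 in every strain mean at E14.5. Their strain differences at that stage are therefore not exact. An interaction sets stages side by side that were normalized apart, so a signal scale that differs between stages could change it.

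Within a group, arrays also differed, and Nrgn varied most among the 1-per-gene probe sets. At P1 it read 10.36, 11.40 and 11.17 in D2 and 10.79, 10.31 and 10.30 in 129, against 11.04, 9.92 and 10.72 in B6, so replicates spanned up to 1.13 log2. The mean level of the 5 forebrain excitatory markers moved with it. Deviations from the group means over the 36 arrays correlated at r = 0.41 and rho = 0.65 for Nrgn (permutation within groups, adjusted p = 0.0045 and 0.00211). For Thy1 they were r = 0.70 and rho = 0.74 (permutation adjusted p = 0.00189 and 0.00144) and for Rasgrp1 r = 0.72 and rho = 0.65 (permutation adjusted p = 0.0228 and 0.00915). Without the 2 arrays farthest from the median of the markers, r was 0.42, 0.59 and 0.55 for Nrgn, Thy1 and Rasgrp1. The other 6 members had r between -0.44 and 0.37 with permutation adjusted p above the threshold, although the rank correlation passed for Ptk2b (0.48, adjusted p = 0.0309). With same-numbered arrays of a stage kept together (exact permutation test over 1296 orders of the numbers, two-sided), the adjusted p for r was 0.0365 for each of Nrgn, Thy1, Rasgrp1 and Ptk2b, and those for rho were 0.0231, 0.0231, 0.033 and 0.0231. With the mean of same-numbered arrays of a stage also removed, r was 0.31 for Nrgn, 0.70 for Thy1, 0.53 for Rasgrp1 and 0.38 for Ptk2b. The 9 relations were chosen after the values were seen, and the p-values are adjusted over them. The same relation was not measured over all genes, so it cannot be called particular to these members.

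By stage, r for Nrgn was 0.59 at E14.5, 0.98 at P1, 0.95 at P7 and 0.71 at P90, with 9 arrays each. For Thy1 it was 0.80, 0.91, 0.95 and 0.64, and for Ptk2b 0.34, 0.91, 0.91 and 0.28. Camk2b had -0.58, 0.92, 0.83 and -0.13, so the sign differed between the embryonic and the early postnatal arrays. The marker level spanned up to 1.70 log2 within a group at E14.5, 0.38 at P1, 0.46 at P7 and 0.14 at P90. At E14.5 the marker means were 8.95, 9.86 and 9.87 in D2 and 10.30, 10.15 and 8.95 in 129, against 9.92, 9.91 and 8.22 in B6. What makes arrays of a group differ in these markers was not tested.

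**Figure D5:**
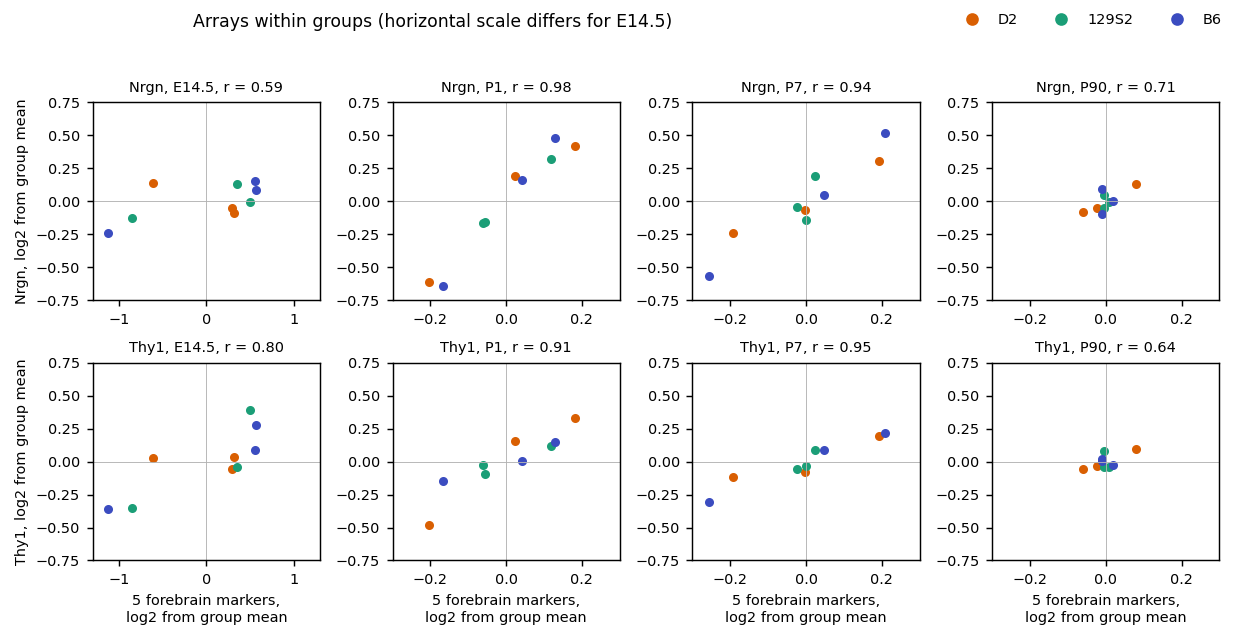
Deviation of each array from its group mean for Nrgn and Thy1 (vertical axis, log2) against that of 5 forebrain excitatory markers (horizontal axis, log2), by stage, in D2, 129S2 and B6. At P1 and P7 the points lie close to a line (r of 0.91 to 0.98), at E14.5 the markers spread up to 1.70 and at P90 the markers hardly vary.

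Other genes of the same signalling changed less evenly with age, by values given without a test. Over all genes, 12.3% gained at least 2-fold between E14.5 and P90 in every strain, the share to hold against each list below. Of 12 CaM kinases and regulators that passed the filter, 6 gained at least 2-fold between E14.5 and P90 in every strain and 0 lost as much (median 1.13 log2). The highest were Camkv, a pseudokinase that binds calmodulin (3.33 ± 0.16), and the kinase II inhibitor Camk2n1 (2.72 ± 0.21), and the lowest were Dapk2 (-0.40) and Camk1g (-0.14). Calmodulin, calcium sensors and buffers had 9 of 13 higher and 0 lower, median 2.91. The neuronal calcium sensors Hpcal4 (5.09 ± 0.34) and Vsnl1 (4.38 ± 0.71) led it, and Gap43, a growth cone protein (-0.47), and Hpcal1 (0.29) were last. Among calcineurin subunits and inhibitors 4 of 8 were higher, median 1.09, from the anchor Akap5 (2.25 ± 0.29) and the regulatory subunit Ppp3r1 (1.79 ± 0.01) down to the inhibitors Cabin1 (-0.21) and Rcan3 (-1.12).

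Phosphoinositide and protein kinase C genes had 3 of 13 higher and 1 lower, median 0.86, with Prkcb (2.71 ± 0.36) and Plcb1 (2.06 ± 0.06) highest and Itpkc, a relative of Itpka (-0.83), and Plcg1 (-1.08) lowest. Of 11 Ras exchange factors and calcium-gated enzymes 7 were higher, median 2.25. Rasgrf1, an exchange factor activated by calmodulin (5.35 ± 0.15), and the phosphodiesterase Pde1a (3.80 ± 0.06) stood highest, and Pde1c (-0.02) and Creb1 (-0.94) lowest. Channels, pumps and exchangers had 10 of 26 higher, median 0.92, led by the plasma membrane pump Atp2b2 (3.51 ± 0.15) and the ryanodine receptor Ryr2 (2.88 ± 0.34), with Stim1 (-0.24) and Cacna1h (-0.20) at the low end. Between strains at E14.5, 11 of these 83 genes were called in D2 minus B6 (5.19% of all probe sets). In 129 minus B6 there were 5 (3.85%), and all these genes were lower than in B6. In the other comparisons with calls 1 or 2 genes were called (2.13 to 2.83% of all probe sets). The largest difference was that of Vsnl1 at E14.5, where D2 was 1.45 ± 0.15 log2 below B6 (adjusted p = 5.56e-08), and no other reached 2-fold. At E14.5 the median difference from B6 of the general neuronal markers was -0.385 in D2 and in 129. That of the forebrain excitatory markers was 0.2 in D2 and 0.371 in 129. Of these markers only Nefl was called, lower in 129 than in B6. The part of either marker list in the E14.5 calls was not tested.

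Over the 12 group means, each gene centred on its own mean, the genes nearest to the average of the 9 members were Icam5, an adhesion molecule of forebrain dendrites (root mean square distance 0.21 log2), Nrip3 (0.22), Hpcal4 (0.22), Hpca (0.24), Chchd10 (0.24) and the neuronal chemokine Cx3cl1 (0.26). Of the members, Nrgn lay nearest to that average (0.27) and Thy1 farthest (1.11). Camk2a and Itpka were the closest pair of members (0.33), and Ppp3ca and Thy1 the most distant (1.97). The nearest other gene was Gng13 for Camk2a (0.25), 5730409E04Rik for Camk2b (0.11), Slc6a7 for Camk4 (0.39), Klf9 for Nrgn (0.17), Phyhip for Itpka (0.20), Cracdl for Ptk2b (0.07), Gabrd for Rasgrp1 (0.14), Slc2a13 for Ppp3ca (0.09) and the astrocyte water channel gene Aqp4 for Thy1 (0.74). Aqp4 marks astrocytes, another cell type of the same tissue.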

How the data were processed

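Affymetrix arrays of whole brain were used, 36 of the 72 in the series. The deposited values are log2 signals that the authors made with RMA, per the submitters' processing notes, and the version and build are not given in the sources used here. Probe sets took their gene from the platform annotation (34958 with 1 symbol, 932 with several, of 45101). Strains were compared with limma 3.58.1 under R 4.3.3 (1 mean for each group, lmFit and eBayes, two-sided). The 30894 probe sets tested had a brain group mean above 6.66, the median over all deposited values. A call needed a Benjamini-Hochberg adjusted p below 0.05 and at least 1.5-fold. The procedure was tested on simulated data with independent noise for each array. That test did not cover the shared deviations of same-numbered arrays described below. Steps between stages used quantile normalization over the brain arrays and the brightest probe set of a gene, without a test. Relations with markers used 100000 permutations within groups (Python 3.11.15). Alternatives covered filter, scaling, variance, array weights, probe sets, fold minimum, replicate block and each array left out. The labels give no origin for a shared replicate number, but same-numbered arrays deviated together at P7 and partly at P1, so a block within each stage was added after seeing the data. Members and gene lists were chosen with earlier results of these data known. Named were all member probe sets, the 2 highest and 2 lowest genes of each pathway list, those called at 2-fold or more between strains, and the nearest genes by distance. Liver arrays were not used for a comparison.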

Additional observations from a re-analysis of the deposited data

Results flagged for a closer look

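The strain difference changed with the stage for 6 member probe sets by limma's F test of the interaction, and the values here are the largest change of a strain difference between stages on the deposited log2 scale. For Camk4 1439843_at, D2 minus B6 was 1.09 higher at P7 than at E14.5 (adjusted p = 9.57e-04), that is, less negative. For Camk4 1426167_a_at it was 0.78 higher at P90 than at E14.5 (adjusted p = 0.00294). On Camk4 1421941_at D2 minus B6 was 0.90 higher at P7 than at E14.5 (adjusted p = 0.00123). Both probe sets had group means below the filter of 6.66 in every strain at E14.5, and 1421941_at also in B6 at P7. Sizes that involve these groups are not exact. For Camk2a 1437125_at, D2 minus B6 changed by -0.75 at P90 relative to P7 (adjusted p = 0.0077). For Itpka, 129 minus D2 was 0.99 higher at P90 than at P1 (adjusted p = 0.0113). For Camk2b, D2 minus B6 was 0.70 higher at P1 than at E14.5 (adjusted p = 0.0287), and this call was lost in 6 of the 36 fits that left out 1 array, with adjusted p up to 0.0798. Stages were normalized apart, and the part of that in these values was not tested.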

How the results depend on the processing

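Of 31 named differences, all kept direction and call with no filter, a filter at the median of each stage, median centring, a trended and robust variance, and no fold minimum, while quantile normalization ended 1 call and array weights ended 3. Quantile normalization called 5 probe sets at P1 against 3 (each stage count here is of probe sets called in at least 1 pair). With 1 probe set a gene, calls were 2 at P7, 1 at P90, 1 over the 4 stages and 3 in the interaction, since fewer probe sets were tested. With a gene's probe sets averaged they were 0 at E14.5, 1 at P1, 0 at P7, 0 at P90, 0 over the stages and 2 in the interaction. The Camk4 difference then reversed against single probe sets, to 0.067 (D2 minus B6, P1), 0.027 (D2 minus B6, P7), -0.113 (129 minus B6, P7), -0.246 (D2 minus B6, P90), -0.08 (129 minus B6, P90) and -0.141 (D2 minus B6 over the stages), because its probe sets differ in sign. With no fold minimum, 8 were called at E14.5, 6 at P90 and 8 over the stages. The median rise was 4.54 on the deposited values and 4.55 with the mean of probe sets, and genes with a largest last step numbered 0 as deposited, 2 with median centring and 2 with the mean of probe sets, against 1. With each array left out in turn, counts ran from 1 to 2 at E14.5, 3 to 4 at P1, 5 to 6 at P7, 3 to 4 at P90, 2 to 3 over the stages and 5 to 7 in the interaction, the rise from 5.19 to 5.25, and the last-step count stayed at 1. The count of 2 at E14.5 came without 129 replicate 3 or without B6 replicate 2. With the replicate block, counts were 1, 4, 6 and 3 by stage, against 1, 3, 6 and 3, with 3 over the stages and 6 in the interaction, and 0 of 31 calls were lost. Same-numbered arrays of a stage deviated with correlations from -0.361 to 0.817. At P7 8 of 9 were over 0.1 (all 3 in D2 minus B6 and in 129 minus D2), at P1 6 of 9 (all 3 in 129 minus B6), at E14.5 4 of 9 and at P90 2 of 9, and 18 of 36 arrays correlated best with their own number. A replicate block within each stage was therefore added after seeing the data. It gave 1, 4, 6 and 3 by stage, 3 over the stages and 5 in the interaction, and ended 1 of 31 calls, the Camk2b interaction. Signals near the filter at E14.5 limit the size of a rise from that stage.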

Other observations

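The interaction passed the adjusted p but not the fold minimum for a Ptk2b probe set (1442927_at, largest change -0.37, adjusted p = 0.0377) and for Ppp3ca 1438478_a_at (0.49, adjusted p = 0.0194) and 1426401_at (0.47, adjusted p = 0.0482). Liver arrays are no part of the comparisons above, and there the Thy1 probe set stood at percentiles of 22.8 to 64.5 within liver arrays, against 98.6 to 99.3 in adult brain. Camk4 1439843_at stood at 7.95 to 24.9 in liver, and Ppp3ca 1426401_at at 75.3 to 88.0.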
